A study of Mus musculus with 9 samples.

Results

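The endothelial cell loci described here are the regulatory surroundings of 10 genes that mark the cells lining blood vessels: *Cdh5*, *Kdr*, *Flt1*, *Tek*, *Tie1*, *Pecam1*, *Erg*, *Tal1*, *Emcn* and *Sox17*. An open chromatin peak was assigned to one of these genes when the gene had the start site nearest to the peak's summit, among protein-coding transcripts and within 500 kb. This rule took 216 of the 286921 peaks in 9 lists, and peaks within 100 bp of each other across lists were merged, which gave 65 of 69415 regions. *Tie1* received 0 peaks, so the 65 regions belong to 9 of the 10 genes. The farthest region inside the limit lay 351 kb from *Cdh5*, and 2 regions nearest to *Cdh5* fell just outside it, at 518 kb and 530 kb, with peaks in 4 and 3 Sox2-EGFP+ samples and in 0 Sox2-EGFP- samples.

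ATAC-seq, which reads out accessible DNA by where a transposase can insert, was run on cells sorted from the cochlear ducts of mouse embryos that carry EGFP in 1 copy of *Sox2*. Sox2-EGFP+ cells, the prosensory progenitors of hair cells and supporting cells, were sampled at embryonic days E12, E14.5 and E16 with 2 replicates each, and Sox2-EGFP- cells, the live cells with the lowest EGFP, with 1 sample at E14.5 and 2 at E16. Each replicate pooled the ducts of a litter, from which nerve tissue and most of the surrounding mesenchyme had been dissected away. The paper considers it possible that the sorted cells still held otic fibroblasts. The question put to these loci was whether vessel cells add open regions to the Sox2-EGFP- lists that the Sox2-EGFP+ lists lack. All groups share the *Sox2* reporter allele, Sox2-EGFP- cells of E12 were not analysed here, and cells of intermediate, low EGFP were left out of both gates.

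Endothelial cells line every blood vessel and, once the cochlea is vascularised, lie in the mesenchyme around the duct and in the stria vascularis. Their identity is held by ETS factors such as Erg together with Sox17 and related SOX factors, and their growth is steered by VEGF receptors (Kdr, Flt1) and by the angiopoietin receptor Tek. Enhancers of these genes are known for short ETS sites, often beside FOX, SOX, GATA or E-box sites.

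The lists differed in length, and they hold no reads, so the presence of a peak is what can be compared. In Sox2-EGFP+ replicates 1 and 2 the number of peaks was 13817 and 7577 at E12, 66332 and 22962 at E14.5, and 39314 and 65870 at E16. In Sox2-EGFP- cells it was 23302 in the E14.5 sample and 23848 and 23899 in E16 replicates 1 and 2. The authors had kept a peak only where a further sample of that cell type had an overlapping peak, so no region of the whole lists could be Sox2-EGFP- alone with fewer than 2 samples. For 3 E16 samples, Sox2-EGFP+ replicate 2 and both Sox2-EGFP- replicates, the cell type tag of the deposited labels names the opposite cell type from the title. Titles were followed, and marker genes were used as a check. Peaks nearest to 8 prosensory genes, among them *Eya1* and *Jag1*, made up 17.3 per 10000 peaks in that E16 Sox2-EGFP+ replicate 2, and 8.81 and 8.79 in the E16 Sox2-EGFP- replicates 1 and 2. In the samples whose title and tag match, the same genes took 15.3 to 22.4 per 10000 in Sox2-EGFP+ lists and 9.01 in the Sox2-EGFP- list, so the 3 samples lay with their titles. Results without these 3 samples are given beside the main counts.

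The sequences that carry the result are given here in mm9. The first 4 are from the regions of the listed genes that were called in each of the 3 Sox2-EGFP- lists and in 0 of 6 Sox2-EGFP+ lists. The *Tek* sequence is from a promoter open in both cell types, and the *Sox17* sequence from a region open in all 9 samples. The *Kdr* and *Flt1* promoter regions, which are centred on untranslated exons, are not printed. Each runs over 300 bases around the summit, except at the promoters. The *Tek* sequence is the part of that window before the first transcribed base, and the *Emcn* promoter sequence is the 99 bases of the region before it, which do not hold the summit. Capitals mark every match, on either strand, to the motifs searched. For ETS factors these were the longer CNGGAAGT and, as a core shared by many members of the family, the letters CAGGAA. SOX factors were searched with AACAAT, while for the zinc finger factors of the GATA family the letters were AGATAA. The forkhead (FOX) motif was TGTTTAC, and the E-box bound by bHLH factors such as Tal1 was written CAGNTG. The AP-1 motif was TGANTCA, and the motif of the TEAD factors, partners of the Hippo pathway, was GGAATG. Matches of different motifs may overlap. A match is a description of the letters and not a binding site.
*Emcn* upstream region, chr3:136944107-136944406, + strand: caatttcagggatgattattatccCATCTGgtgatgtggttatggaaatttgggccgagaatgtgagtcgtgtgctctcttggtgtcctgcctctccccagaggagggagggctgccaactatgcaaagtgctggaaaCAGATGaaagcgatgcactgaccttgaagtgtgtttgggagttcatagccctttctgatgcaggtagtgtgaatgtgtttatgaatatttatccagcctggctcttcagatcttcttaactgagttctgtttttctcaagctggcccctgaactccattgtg
*Emcn* promoter region, chr3:137003932-137004030, + strand: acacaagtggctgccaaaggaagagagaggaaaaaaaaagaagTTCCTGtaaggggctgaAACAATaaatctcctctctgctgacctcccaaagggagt
*Erg* intronic region, chr16:95643074-95643373, + strand: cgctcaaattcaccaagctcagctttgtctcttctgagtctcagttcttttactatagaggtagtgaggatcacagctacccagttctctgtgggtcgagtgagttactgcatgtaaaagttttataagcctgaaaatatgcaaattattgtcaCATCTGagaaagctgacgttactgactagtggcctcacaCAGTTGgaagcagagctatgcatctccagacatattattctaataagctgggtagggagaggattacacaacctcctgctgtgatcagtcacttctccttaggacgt
*Cdh5* upstream region, chr8:106547012-106547311, + strand: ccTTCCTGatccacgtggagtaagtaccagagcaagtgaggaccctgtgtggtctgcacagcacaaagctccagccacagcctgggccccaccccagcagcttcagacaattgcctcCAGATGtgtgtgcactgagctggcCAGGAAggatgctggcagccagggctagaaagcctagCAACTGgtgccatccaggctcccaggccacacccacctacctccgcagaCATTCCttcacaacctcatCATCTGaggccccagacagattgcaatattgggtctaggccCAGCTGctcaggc
*Tek* promoter region, chr4:94405744-94405979, + strand: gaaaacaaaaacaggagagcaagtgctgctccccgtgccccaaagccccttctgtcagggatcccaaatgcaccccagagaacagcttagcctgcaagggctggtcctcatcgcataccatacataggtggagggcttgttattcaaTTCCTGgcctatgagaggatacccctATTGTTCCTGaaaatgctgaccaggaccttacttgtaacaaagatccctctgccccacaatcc
*Sox17* upstream region, chr1:4561815-4562114, + strand: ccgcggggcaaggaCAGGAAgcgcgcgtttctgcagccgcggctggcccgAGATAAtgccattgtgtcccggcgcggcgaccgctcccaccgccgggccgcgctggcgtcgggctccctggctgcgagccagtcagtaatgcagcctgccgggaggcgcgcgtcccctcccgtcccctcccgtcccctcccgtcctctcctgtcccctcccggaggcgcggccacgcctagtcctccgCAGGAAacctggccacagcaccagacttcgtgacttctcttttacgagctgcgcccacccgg

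Across the 65 regions, 12 had peaks in Sox2-EGFP- samples alone, 13 in both cell types and 40 in Sox2-EGFP+ samples alone. The share in Sox2-EGFP- samples alone was 18.5%, against 5.63% of all regions of the genome, and the share in Sox2-EGFP+ samples alone was 61.5%, against 65.5% of all regions. A peak in every Sox2-EGFP- sample and in no Sox2-EGFP+ sample was found at 4 regions (6.15%), against 2.34% of all regions. These 4 regions belong to *Emcn*, with 2, and to *Erg* and *Cdh5*, with 1 each. Thus 3 of the 9 listed genes with a region have such a region, against 7.58% of all genes with an assigned region. A gene with more regions has more room for one, and *Cdh5*, *Erg* and *Emcn* had 17, 9 and 5. The gene shares were not adjusted for this. Of the 40 regions open in Sox2-EGFP+ samples alone, 25 had peaks in the longest lists only, which are replicate 1 at E14.5 and replicate 2 at E16. The same 2 lists alone accounted for 38.5% of the endothelial regions and 35.4% of all regions. With 3 samples against 6, a region present in all of one type and none of the other reaches p = 0.0119 at the least (Fisher's exact test, two-sided). After Benjamini-Hochberg adjustment over 69415 regions the 4 regions had an adjusted p of 0.38, and 0 regions of the genome were under 0.05 by this exact test, with 3529 under 0.05 before adjustment. Among the 6 samples whose title and tag match, 8 regions of 6 genes had a peak in the only Sox2-EGFP- sample left but none in Sox2-EGFP+ samples, which is 12.9% of the endothelial regions against 4.21% of all regions. The 4 regions became 9 without the E14.5 Sox2-EGFP- sample (13.8%, against 3.91% of all regions). Without E16 Sox2-EGFP- replicate 2 the 3 genes became 5, with 6 regions (9.23%, against 3.21% of all regions).

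**Figure D1:**
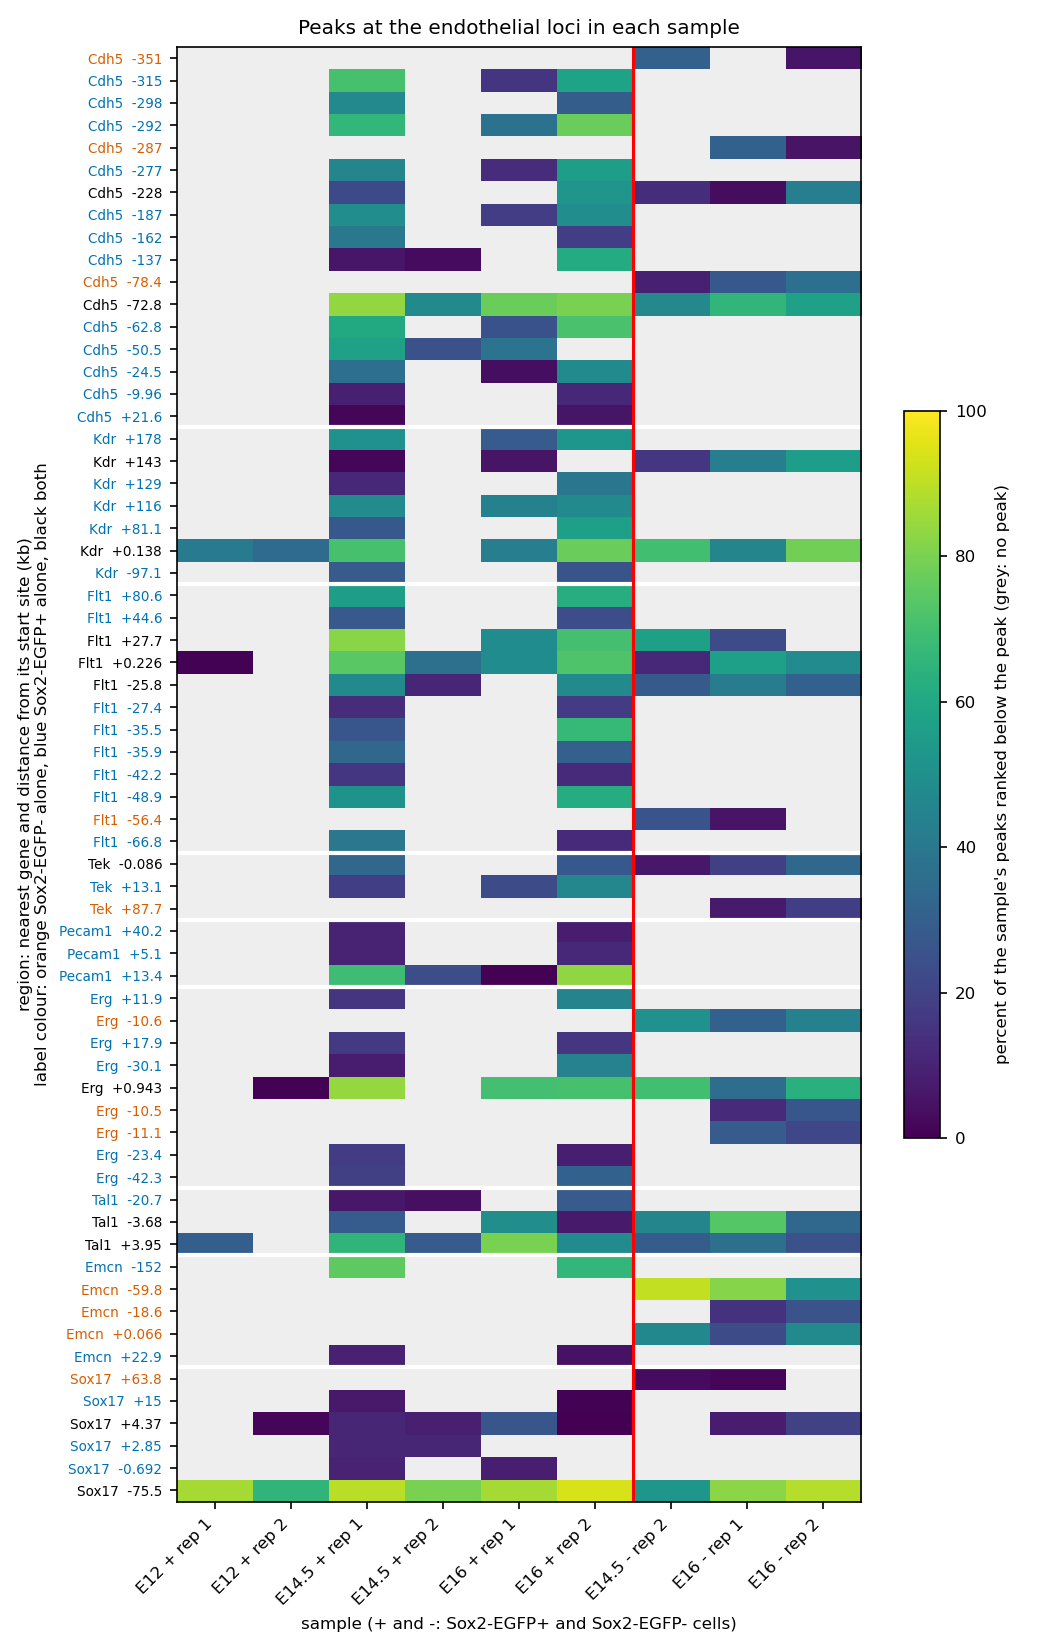
Each row is 1 of the 65 regions, named by its nearest gene and its distance in kb from that gene's start site (negative is upstream), and each column is a sample, with colour for the percent of the sample's peaks that rank below the peak by -log10 p and grey for no peak. The 4 regions filled in all 3 Sox2-EGFP- columns and empty in the 6 Sox2-EGFP+ columns belong to *Cdh5*, *Erg* and *Emcn*, while 25 blue-labelled regions are filled in only 2 columns, the longest lists.

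The lists were made more alike in length by keeping the 20000 highest peaks of each, except the E12 lists, which are shorter and were kept whole. This left 31 endothelial regions, of which 16 (51.6%) were open in Sox2-EGFP- samples alone, against 17.3% of all regions under the same limit. Sox2-EGFP+ samples alone held 7 of the 31 (22.6%), against 35.4% of all regions. Under this limit the larger category was thus that of Sox2-EGFP- samples alone, while it was that of Sox2-EGFP+ samples alone in the whole lists. The limit cut the Sox2-EGFP+ lists of 66332 and 65870 peaks far more than the Sox2-EGFP- lists of 23302 to 23899. In those 2 long lists the median peak at these loci lay 71.2% and 54.6% of the way down, so many such peaks were lost there. The counts are not of the same kind as those of the whole lists, since a peak can lose its partner in another sample to the limit. Of the 16 regions, 8 had a peak in a single Sox2-EGFP- sample, and 5 also had a Sox2-EGFP+ peak in the whole lists. Of the 7 regions in Sox2-EGFP+ samples alone, 6 had a peak in a single sample and 1 also had a Sox2-EGFP- peak in the whole lists. Regions with a peak in every Sox2-EGFP- sample and no Sox2-EGFP+ sample numbered 5 of the 31, against 4.62% of all regions, and came from *Emcn*, *Erg*, *Flt1* and *Kdr*. With the 7500 highest peaks of each list, 6 endothelial regions were left and 0 had this pattern, which 0.771% of all regions had under that limit, so the 0 says nothing about these loci.

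The share of each list taken by the 10 loci was higher in each Sox2-EGFP- sample than in any Sox2-EGFP+ sample. Per 10000 peaks, the Sox2-EGFP- lists held 9.01 (E14.5), 10.5 (E16 replicate 1) and 9.21 (E16 replicate 2) peaks at these loci. The Sox2-EGFP+ lists held 2.89 and 5.28 at E12, 8.29 and 5.23 at E14.5, and 5.85 and 7.59 at E16, in the order of the replicates. Every Sox2-EGFP- value lay above every Sox2-EGFP+ value, with means of 9.57 ± 0.799 (SD, n = 3) and 5.86 ± 1.92 (SD, n = 6). Among the 20000 highest peaks, a limit that took the most peaks from the longest Sox2-EGFP+ lists, the means were 8.67 ± 1.26 (SD, n = 3) and 3.7 ± 1.08 (SD, n = 6). The groups were again without overlap, with 7.5 as the lowest Sox2-EGFP- value and 5.28 as the highest Sox2-EGFP+ value. The groups overlapped under the other limits on the lists. With a -log10 q of at least 5 the lowest Sox2-EGFP- value was 7.06 and the highest Sox2-EGFP+ value 8.28, and with the 7500 highest peaks these were 2.67 and 4. No test is given for the summed loci, and no rate over other sets of 10 genes was made. For single genes in the whole lists, 6.28% of all genes had every Sox2-EGFP- value above every Sox2-EGFP+ value. Among the Sox2-EGFP+ lists the longest had the highest shares, 8.29 and 7.59, so the share may vary with list length, which was not tested. The median peak at these loci lay below the middle of every list by -log10 p, at 54.6% to 82.7% of the way down. In the Sox2-EGFP- lists it lay at 65.1% to 71.1%. Single peaks ranked far higher. In bulk material, fewer endothelial cells and less accessible chromatin per cell cannot be told apart.

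**Figure D2:**
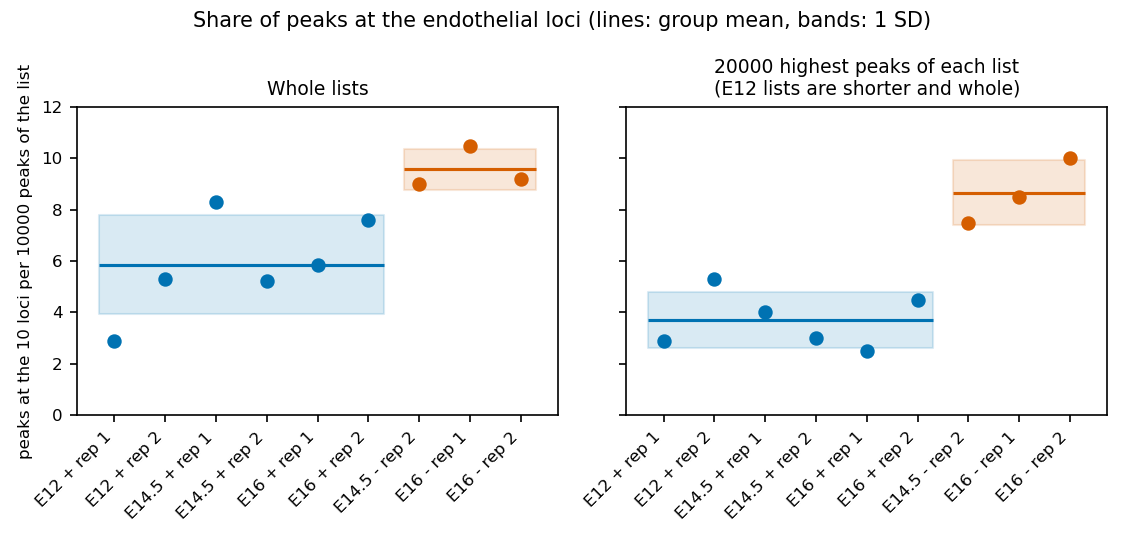
Points are the peaks assigned to the 10 loci per 10000 peaks of each sample's list, for whole lists (left) and for the 20000 highest peaks (right), with lines for the group mean and bands for 1 SD. The 3 Sox2-EGFP- samples sit at 9.01 to 10.5 on the left and 7.5 to 10 on the right, above the highest Sox2-EGFP+ values of 8.29 and 5.28.

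Among the surface and junction genes, *Emcn* showed the clearest split. *Emcn* encodes endomucin, a sialomucin of capillary and venous endothelium. It received 2 peaks in the E14.5 Sox2-EGFP- list and 3 in each E16 Sox2-EGFP- list, and 3 and 2 in the longest Sox2-EGFP+ lists but 0 in the other 4. None of its 5 regions was shared between the cell types. Only 28.8% of all regions were shared, so this count alone is not read as a result. The region 59.8 kb upstream, chr3:136943762-136944566, is intergenic and had fold enrichments of 8.03 in the E14.5 Sox2-EGFP- sample and of 12.4 and 6.21 in the E16 replicates. Its peaks ranked 2124 of 23302, 4362 of 23848 and 11775 of 23899, and by mean rank it was number 34 of the 1624 regions of the genome with this pattern. The *Emcn* promoter region, chr3:137003932-137004382, spans the first start site. Its fold enrichments were 4.5, 5.4 and 6.16 in the same order, and no Sox2-EGFP+ list had a peak there. Such a promoter was uncommon: 20 of 22238 genes (0.0899%) had a promoter peak, which is a peak that touches the 1000 bp before a start site or the 100 bp after it, in every Sox2-EGFP- and in no Sox2-EGFP+ sample. The third Sox2-EGFP- region, 18.6 kb upstream, appeared in the E16 replicates alone with 5.02-fold and 4.71-fold enrichment. The regions open in the longest Sox2-EGFP+ lists lay elsewhere, 152 kb upstream and 22.9 kb into the gene. Per 10000 peaks, *Emcn* averaged 1.12 in Sox2-EGFP- and 0.126 in Sox2-EGFP+ lists. All 3 Sox2-EGFP- values lay above all 6 Sox2-EGFP+ values, as for 6.28% of all genes, and the exact permutation test gave p = 0.0119, the smallest it can give, and 0.216 after adjustment over 17076 genes.

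*Cdh5* encodes VE-cadherin, the adhesion molecule of endothelial junctions, and had the most regions, 17. Its own promoter had a peak in 0 of 9 lists, and the nearest region began 9.8 kb away. Of the 17 regions, 12 were open in Sox2-EGFP+ samples alone and 3 in Sox2-EGFP- samples alone. The region found in every Sox2-EGFP- list, chr8:106546971-106547340, is intergenic, 78.4 kb upstream. Its enrichments were 3.12-fold at E14.5 and 5.45-fold and 4.4-fold in the E16 replicates, and it ranked from 15194 to 21250, in the lower part of each list. This region was no longer counted at a -log10 q of at least 5, or among the 20000 or the 7500 highest peaks of each list. It was also lost when regions were taken from the gene body with 5 kb to either side. A few kb closer to the gene, 72.8 kb upstream, chr8:106552335-106552914 was open in all 3 Sox2-EGFP- samples (4.08-fold to 8.77-fold) and in the 4 Sox2-EGFP+ samples of E14.5 and E16 (4.49-fold to 13.4-fold). Neighbouring regions of this intergenic stretch thus differed in their pattern. Per 10000 peaks, *Cdh5* took 1.72 at E14.5 and 1.68 and 2.09 at E16 in Sox2-EGFP- lists, within the Sox2-EGFP+ range of 0 to 2.11.

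*Pecam1*, the gene of the adhesion molecule CD31, had 0 peaks in the Sox2-EGFP- lists and in the E12 Sox2-EGFP+ lists. Its 3 regions all lay in its introns and all were open in Sox2-EGFP+ samples alone, as were 65.5% of all regions. The groups overlapped at 0 peaks per 10000, with p = 0.167 by the exact permutation test and 0.573 after adjustment. The strongest, chr11:106598041-106598926, lay 13.4 kb inside the gene and had enrichments of 11.6-fold and 3.71-fold at E14.5 and 3.31-fold and 9.72-fold at E16, in the order of the replicates. The other 2 regions had peaks only in the longest lists, at 3.67-fold to 4.52-fold. No list had a peak at the *Pecam1* promoter.

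**Figure D3:**
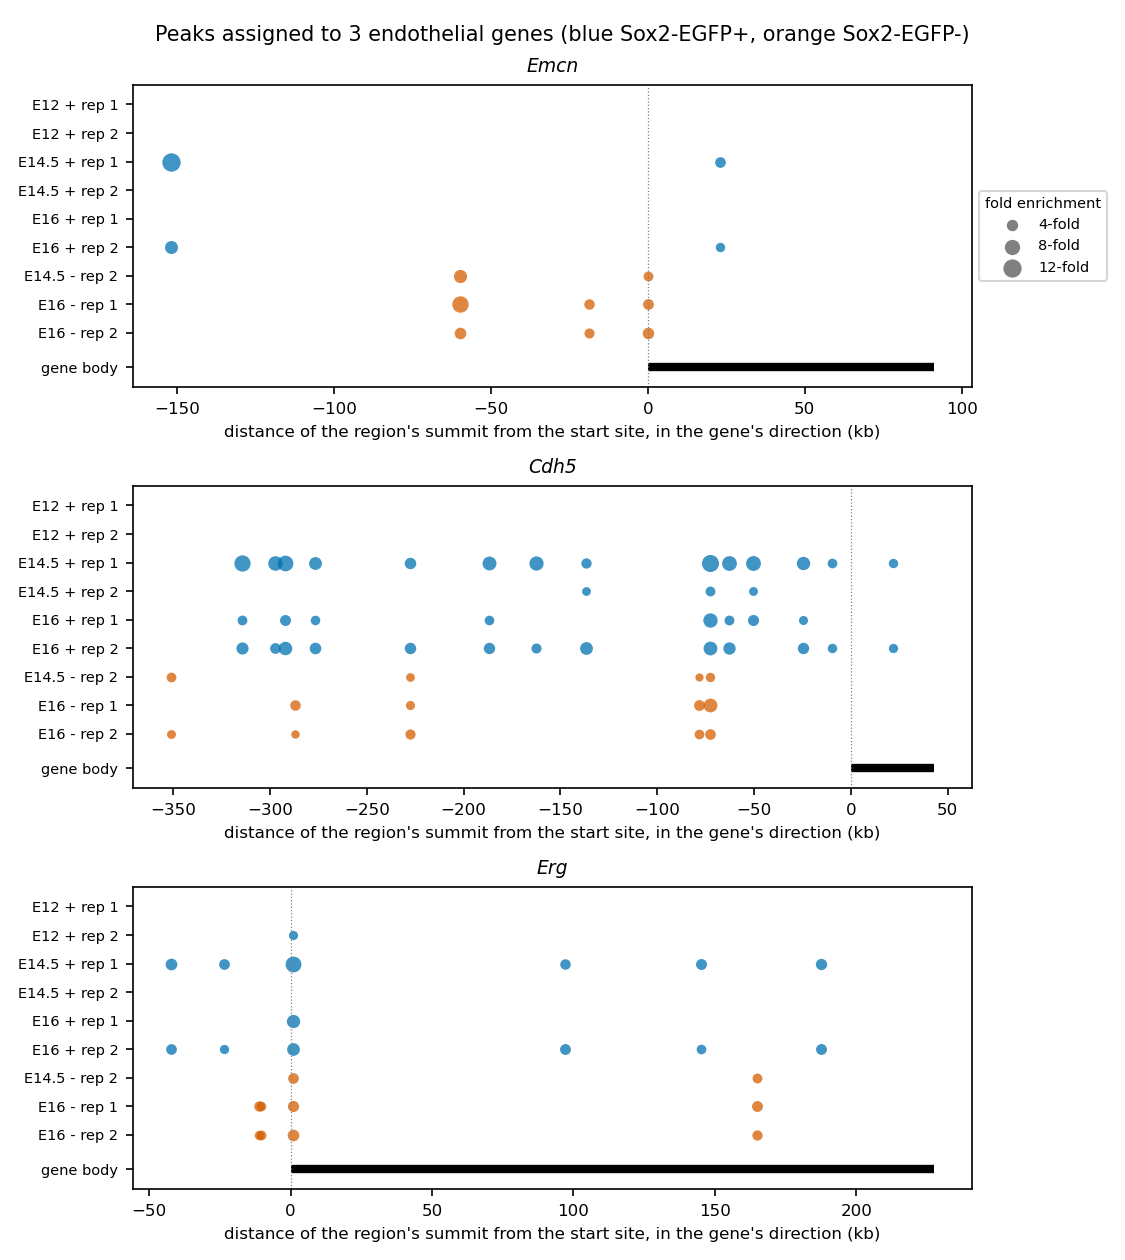
Each dot is a region of *Emcn*, *Cdh5* or *Erg* with a peak in that sample, placed by the region's summit in kb from the most upstream start site used, with rows for samples, dot area for fold enrichment and a black bar for the gene body. At *Emcn* the orange Sox2-EGFP- dots (59.8 kb and 18.6 kb upstream and at the start) share no position with the blue Sox2-EGFP+ dots, while at *Cdh5* and *Erg* shared and separate positions lie side by side.

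Among the receptor genes, *Kdr*, *Flt1* and *Tek* each had a promoter region open in both cell types. Most *Kdr* and *Flt1* regions were open in Sox2-EGFP+ samples alone. *Kdr*, which encodes the main signalling receptor for VEGF, had a promoter region at chr5:76373691-76374920 with peaks in all 3 Sox2-EGFP- samples (5.3-fold at E14.5, 6.01-fold and 6.32-fold at E16) and in 5 of 6 Sox2-EGFP+ samples (5.43-fold to 9.58-fold). Its summit lies in the untranslated part of the first exon. A region 143 kb downstream of the start, beyond the gene's end, was found in all 3 Sox2-EGFP- lists, with ranks 19633, 13697 and 10542. In Sox2-EGFP+ cells it appeared only at ranks 65269 and 37262 of E14.5 replicate 1 and E16 replicate 1, which is why it counted as Sox2-EGFP- alone among the 20000 highest peaks. The other 5 *Kdr* regions were open in Sox2-EGFP+ samples alone.

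*Flt1* encodes the VEGF receptor that also acts as a decoy. The region over its start, chr5:148536831-148538123, had peaks in all 3 Sox2-EGFP- samples (3.15-fold, 6.73-fold and 4.72-fold) and in 5 Sox2-EGFP+ samples (3.87-fold to 9.04-fold). Of its 12 regions, 8 were open in Sox2-EGFP+ samples alone, each of them only in the longest lists. A region 25.8 kb upstream had peaks in all 3 Sox2-EGFP- samples and, in Sox2-EGFP+ cells, in both E14.5 samples and E16 replicate 2, below rank 20000 in each of these. The only *Flt1* region found in Sox2-EGFP- samples alone, 56.4 kb upstream, was at 3.78-fold at E14.5 and 4.14-fold in E16 replicate 1.

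*Tek*, the gene of the angiopoietin receptor Tie2, had a peak at its promoter (chr4:94405378-94406151) in every Sox2-EGFP- sample, at 3.35-fold, 5.07-fold and 4.84-fold. In Sox2-EGFP+ cells the promoter had a peak only in the longest lists, at 7.67-fold and 5.08-fold, with ranks 44506 and 47604. A region 87.7 kb inside the gene, in an intron, was open in the E16 Sox2-EGFP- replicates alone, at 4.44-fold and 4.46-fold. *Tek* had 1, 2 and 2 peaks in the Sox2-EGFP- lists and 2, 1 and 2 in E14.5 replicate 1 and E16 replicates 1 and 2 of Sox2-EGFP+ cells, so the counts themselves overlapped. Per 10000 peaks, it took 0.429, 0.839 and 0.837 in Sox2-EGFP- lists and at most 0.304 in the longer Sox2-EGFP+ lists. On that scale alone the groups did not overlap, and the E14.5 Sox2-EGFP- value of 0.429 is 1 peak. Sox2-EGFP- values all above the Sox2-EGFP+ values were found for *Emcn* and *Tek* of the listed genes and for 6.28% of all genes. For *Emcn* and *Tek* the exact permutation test gave p = 0.0119, and 0.216 after adjustment. Over all genes, 1972 of 17076 had an unadjusted p under 0.05 in this permutation test and 0 an adjusted one. *Tie1*, the receptor related to Tek, had no peak: the nearest region began 18.9 kb from its start site, belonged to another gene and was open in 3 Sox2-EGFP+ samples.

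Of the transcription factors, *Erg* came closest to the pattern of *Emcn*. *Erg* encodes an ETS factor that maintains endothelial identity. Its region with a peak in every Sox2-EGFP- list, chr16:95643111-95643554, lies in an intron, 10.6 kb upstream of an internal start site, with enrichments of 4.5-fold at E14.5 and 5.49-fold and 4.87-fold at E16. Another pair of regions, 10.5 kb and 11.1 kb upstream of the gene, was open in the E16 Sox2-EGFP- replicates alone, between 4.15-fold and 5.05-fold. An intronic region, chr16:95806857-95807661, 0.943 kb from the start, was shared by 3 Sox2-EGFP- and 4 Sox2-EGFP+ samples. The 5 regions in Sox2-EGFP+ samples alone each had peaks only in the longest lists. Per 10000 peaks, *Erg* took 0.858, 1.68 and 1.67 in Sox2-EGFP- lists and 0 to 1.32 in Sox2-EGFP+ lists, so the groups overlapped (exact permutation p = 0.0595, adjusted 0.428).

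*Tal1*, a bHLH factor of blood and endothelial progenitors, had 3 regions, and none was open in Sox2-EGFP- samples alone. The region 3.68 kb upstream had peaks in all 3 Sox2-EGFP- samples (4.19-fold, 8.52-fold and 4.68-fold) and in 3 Sox2-EGFP+ samples (4.07-fold to 5.86-fold). The region 3.95 kb downstream, over a coding exon, was found in 3 Sox2-EGFP- and 5 Sox2-EGFP+ samples. *Sox17*, a SOX factor of arterial endothelium, had the only region open in all 9 samples, chr1:4561390-4562337, intergenic and 75.5 kb upstream. Its enrichments ran from 5.24-fold in the E14.5 Sox2-EGFP- sample to 12.1-fold in E14.5 Sox2-EGFP+ replicate 1, and 71.7% of the 300 bases around its summit were G or C. Over all regions, 7.32% were open in all 9 samples. Its only region in Sox2-EGFP- samples alone lay 63.8 kb downstream, at 3.48-fold at E14.5 and 3.86-fold in E16 replicate 1. The *Sox17* promoter had peaks in 2 Sox2-EGFP+ samples (3.76-fold and 3.7-fold) and in no Sox2-EGFP- sample. Per 10000 peaks, *Sox17* averaged 0.984 in Sox2-EGFP- and 1.11 in Sox2-EGFP+ lists.

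Promoter peaks of the listed genes were counted beside those of all genes, and with 10 genes a difference of 1 or 2 genes is not read as a result. In the Sox2-EGFP- lists, 4 of the 10 genes (*Kdr*, *Flt1*, *Tek* and *Emcn*) had a promoter peak in each sample, while 54.5% to 55.4% of all genes did. In the Sox2-EGFP+ lists the number was 1 and 1 at E12, 4 and 1 at E14.5, and 3 and 3 at E16, against 23.9% to 63.8% of all genes. The promoters of *Cdh5*, *Tie1*, *Pecam1*, *Erg* and *Tal1* had no peak in any sample, as for 35.8% of all genes. By annotation, 41 of the 65 regions were intergenic, 17 intronic, 3 at promoters, 2 over coding exons and 2 over untranslated exons. The 12 regions in Sox2-EGFP- samples alone had a median width of 398 bp and a median distance of 58.1 kb from a start site. The 40 in Sox2-EGFP+ samples alone were much like these, at 495 bp and 42.3 kb. The 13 shared regions were wider and closer, at 805 bp and 4.37 kb, and the medians over all regions were 577 bp and 18.8 kb.

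Motif letters were counted in the 300 bases around each summit. The longer ETS motif was found in 1 of the 65 windows of 300 bases and in 6.52% of all regions. The ETS core occurred in 2 of the 12 regions open in Sox2-EGFP- samples alone (16.7%), in 16 of the 40 open in Sox2-EGFP+ samples alone (40%), and in 32.3% of all regions, or 45.1% of those of the genome open in Sox2-EGFP- samples alone. Of the same 12 regions, 3 held the FOX motif, 3 the GATA motif, 3 the SOX motif and 6 the TEAD motif. The shares over the 3902 regions of the genome open in Sox2-EGFP- samples alone, for which a whole window could be read, were 7.59%, 11.1%, 12.8% and 24.2% in that order. E-box letters were in 7 of the 12 and in 60.1% of all regions. The *Emcn* upstream and *Erg* intronic sequences above held 2 E-boxes each and no ETS core, while the *Cdh5* sequence held 4 E-boxes, 2 ETS cores and a TEAD motif. At the *Emcn* promoter the window around the summit held a GATA and a TEAD motif and no ETS core or SOX motif, while the printed stretch, most of which lies upstream of that window, held an ETS core and a SOX motif.

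Other vascular genes were read in the same way. Of 30 further endothelial genes, 29 had a region, and 3 had 1 or more regions with a peak in every Sox2-EGFP- and in no Sox2-EGFP+ sample: *Ets1*, an ETS factor also used by mesenchyme, with 5, *Eng*, a TGF-β co-receptor, with 1, and *S1pr1*, a sphingosine 1-phosphate receptor, with 1. These 7 regions were 5.43% of the 129 of this list, against 2.34% of all regions, and 5 of the 7 lay at *Ets1* alone. Over all genes with an assigned region, 7.58% had such a region, so 3 of 29 genes is not read as a result. The list took 18.9, 19.3 and 20.5 per 10000 peaks in the Sox2-EGFP- samples and 9.24 to 17.8 in the Sox2-EGFP+ samples, so these groups did not overlap either. The intronic *Eng* region, 9.11 kb from the start, was at 2.94-fold, 5.43-fold and 4.39-fold. Of the ligands of the listed receptors, *Vegfa* had 2 such regions and *Angpt2* had 1, of 46 regions in all (6.52%, against 2.34% of all regions). Per 10000 peaks the ligand genes took 4.18 to 5.87 in Sox2-EGFP- lists, within the Sox2-EGFP+ range of 1.32 to 6.18. The 4 lymphatic genes, the first of them *Prox1*, had 0 such regions of 25, where the share over all regions is 2.34%, so that lists of this size can hold few. Mural cell genes, the first of them *Pdgfrb*, had 0 of 28, and their share of 3.35 to 4.18 per 10000 in Sox2-EGFP- lists lay within the Sox2-EGFP+ range of 0 to 5.09.

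Genes of cell types other than vessel cells also differed between the lists, and their part in the endothelial result was not tested. Genes of the otic mesenchyme had 11 regions of that kind among 53 (20.8%), at 7 of 10 genes: *Dcn* with 3, *Prrx1* and *Tbx18* with 2 each, and *Col1a2*, *Col3a1*, *Pou3f4* and *Twist1* with 1 each. Their share was 14.2, 13.4 and 13 per 10000 peaks in the Sox2-EGFP- lists, with E14.5 first, and 1.32 to 6.38 in the Sox2-EGFP+ lists. All 10 mesenchyme genes had a region in at least 1 list. White blood cell genes had 2 of 49, both at *Runx1*, and 5 of the 14 genes had no peak (*Fcer1g*, *Tyrobp*, *Cd68*, *Lyz2* and *Itgam*). Their share was 5.44 to 5.58 per 10000 in Sox2-EGFP- and 3.62 to 6.97 in Sox2-EGFP+ lists. Melanocyte genes (first *Mitf*), glial genes (first *Sox10*) and epithelial genes (first *Epcam*) had 0 of 56, 0 of 15 and 0 of 48, and prosensory genes 2 of 117 (1.71%, against 2.34% of all regions), at *Eya1* and *Jag1*. The epithelial list took 3.77 to 5.45 per 10000 in Sox2-EGFP- lists and 6.6 to 10.9 in Sox2-EGFP+ lists. Over the 9 listed endothelial genes with a peak, the median difference between the cell types, Sox2-EGFP- minus Sox2-EGFP+, was 0.407 peaks per 10000, against 0.816 for the mesenchyme genes, 0.0354 for the further endothelial genes and -0.034 for all genes.

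**Figure D4:**
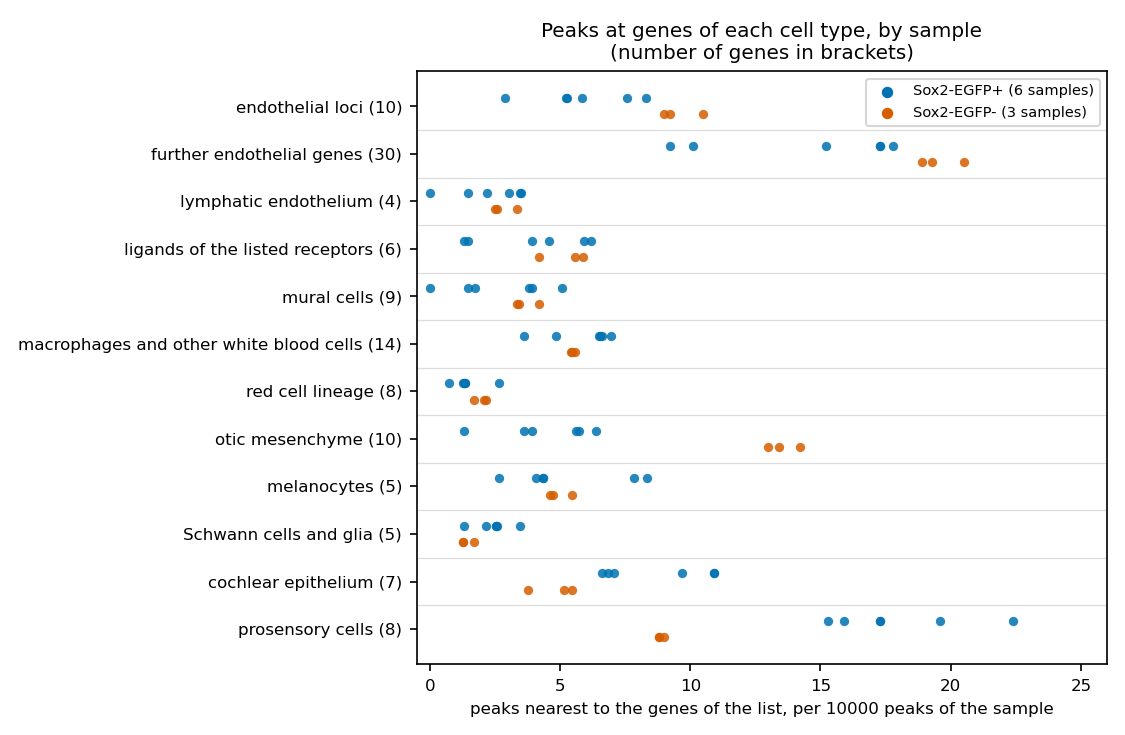
Points are the peaks nearest to the genes of each list per 10000 peaks of a sample, blue for the 6 Sox2-EGFP+ and orange for the 3 Sox2-EGFP- samples. The orange points lie to the right of the blue ones for the endothelial loci (9.01 to 10.5 against 2.89 to 8.29), the further endothelial genes and the otic mesenchyme, and to the left for the epithelial and prosensory genes.

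Within stages and matching replicate numbers, the pairs gave the same direction. At E14.5 the replicates numbered 2 had 9.01 and 5.23 peaks per 10000 at the loci in Sox2-EGFP- and Sox2-EGFP+ cells, at E16 those numbered 1 had 10.5 and 5.85, and those numbered 2 had 9.21 and 7.59. The E16 replicates numbered 1 carry another sequencing run prefix in the labels than the other samples, and without them the means were 9.11 and 5.86. Counted by regions, the first pair had 14 open in Sox2-EGFP- cells without the Sox2-EGFP+ partner and 6 the other way. The E16 pairs had 14 and 12, and 11 and 38, the last with the second longest list on the Sox2-EGFP+ side. The same counts over all regions of each pair were not made, so these are not read as a result about the loci.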

How the data were processed

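ATAC-seq peak lists of 9 samples in mm9 were used. As the study's methods describe, the authors trimmed reads, aligned them with Bowtie2, removed duplicates, called peaks per sample with MACS2 and kept peaks that overlap a peak of another sample of the cell type. Fold enrichment, as the authors deposited it, is a ratio of reads at the summit to the local background. Significance was deposited by the authors as -log10 p and -log10 q within each sample. The deposited score is 10 times the -log10 q and was not used. Depth is not in the lists, and both tests count a missing peak as absent, also in the short E12 lists.

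Start sites came from 51733 protein-coding transcripts of GENCODE vM1, and sequences from the mm9 reference, in which 0 peaks lay past a chromosome end. Lists were merged within 100 bp. Presence was tested by Fisher's exact test, and peaks per 10000 by exact permutation over the 84 choices of 3 of 9 samples, both two-sided. Calculations ran in Python 3.11.15 with SciPy 1.17.1 (exact tests) and NumPy 2.4.6, figures in matplotlib 3.10.9, and merging was checked against bedtools 2.31.1 on simulated intervals. The gene symbol *Spi1* was matched to *Sfpi1* by its synonyms. Regions named are, for each gene, those in every Sox2-EGFP- and no Sox2-EGFP+ list, those at promoters and those in all 9 samples; other regions and the *Eng* values were chosen after their values were seen. Sequences are of those with the best mean rank. Of the other lists whose region counts are reported, every gene with a region in every Sox2-EGFP- and no Sox2-EGFP+ list is named. Where a list had none, its first gene is named. White blood cell genes without a peak are named as well. Sequences over untranslated exons were not printed. The region counts of the red cell list are not reported here. The members and lists were chosen with earlier results of these data known. Alternatives were stricter or equal lists, other merging, distances and annotations, left-out samples and pairs; the gene body rule and leaving out the longest lists were added later.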

Additional observations from a re-analysis of the deposited data

Results flagged for a closer look

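The share of peaks at the 10 loci, and that of each of the 9 genes with a peak, was examined in the 6 Sox2-EGFP+ lists for a sample that stands apart from the others, and 0 of these 10 sets of values had one. Groups of 3 samples were not examined. For 0 genes did all samples at E14.5 differ between the cell types in one direction and all samples at E16 in the other.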

How the results depend on the processing

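Of 22 alternatives to the count of 4 endothelial regions with a peak in every Sox2-EGFP- and no Sox2-EGFP+ sample, 19 stayed within 1.5 times of it. The count was 0, at 0 genes, with the 7500 highest peaks of each list, where 6 endothelial regions were left and 0.771% of all regions had the pattern, and 8, at 6 genes, with the 6 samples whose title and tag match. Leaving out 1 sample at a time gave 4 to 9 regions at 3 to 5 genes. Each Sox2-EGFP+ peak had a partner in another sample, so leaving out 1 of the 6 Sox2-EGFP+ samples could hardly change the count. Those alternatives, each with 4 regions at 3 genes, say nothing about how stable it is. The count was 9 without the E14.5 Sox2-EGFP- sample, and the genes were 5 without E16 Sox2-EGFP- replicate 2. These alternatives leave fewer samples or peaks; the cause was not tested further. The 20000 highest peaks gave 5 regions at 4 genes, and a -log10 q of at least 5 gave 3 at 2. Of the alternatives added after the data were seen, the gene body with 5 kb to either side gave 3 at 3, and leaving out the 2 longest lists gave 6 at 4. The difference in peaks per 10000 between the cell types, 3.71, was above 0 in all 21 alternatives run for it and moved by more than the SD of the Sox2-EGFP+ lists only with the 7500 highest peaks, to 1.78. With the replicate block, that is within the 3 pairs of the same stage and number, there were 4 regions at 3 genes and the mean paired difference was 3.34. The paper describes E16 Sox2-EGFP+ and Sox2-EGFP- cells as collected in parallel, and its methods give parallel isolation for some cases. Whether it holds for each pair of the same number is not stated in the sources used here.

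A peak list gives presence at a threshold and no reads, and the study's read totals were not used here, so a missing peak is not set against depth. The E14.5 Sox2-EGFP- group is 1 sample, Sox2-EGFP- cells of E12 were not analysed, and no region or gene passed adjustment. The nearest start site need not be the gene a region acts on. How many endothelial cells each sort held was not measured.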
